A study of Mus musculus with 14 samples.

Results

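Genes for the proteins of the cytosolic ribosome were followed in the suprachiasmatic nucleus (SCN), the paired hypothalamic nucleus that holds the main circadian clock of mammals. They were chosen by symbol and level. The symbols were those with Rpl or Rps followed by a number and at most one of the letters a, x or l, together with Rplp0, Rplp1, Rplp2 and Rpsa, and the mean over 14 libraries had to be at least 50 normalized reads. Of 55401 genes 83 had such a symbol and 79 reached the mean, 47 of the large and 32 of the small subunit. The SCN was cut by laser from stained brain sections, 20 µm thick, of C57BL/6 mice, and its total RNA was sequenced. KO mice were Vipr2-/- and WT mice Vipr2+/+. Vipr2 encodes VPAC2, which receives the signal of VIP, a peptide that keeps SCN neurons in step. The groups were KO with scheduled voluntary exercise (SVE, 3 libraries), KO without it (nSVE, 3), WT SVE (4) and WT nSVE (4). Before the experiment all mice lived for 14 days under light and dark, and then in constant darkness, where nSVE mice ran free. SVE mice ran free for 14 days and then had their wheel running limited to 6 h of every 24 h, until they had entrained, which took 6 to 9 days in KO and 35 to 40 days in WT mice. SVE mice were killed 2 h after the wheel became available and nSVE mice at circadian time 14. The series text gives circadian time 24 for WT SVE, so in WT the exercise groups may differ in circadian time. Most mice were males over 8 weeks old. Mice that did not entrain and KO nSVE mice without a rhythm had been left out by the authors, so the groups hold selected animals. No label says whether each library is from a mouse of its own, so the p-values here reflect the spread between libraries, which may be technical.

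A eukaryotic ribosome is built from a large subunit, which joins amino acids, and a small subunit, which reads the mRNA, each an rRNA core clad in proteins that are present in one copy apiece, apart from the stalk proteins. The mRNAs of these proteins are among the most abundant of any cell, have short 5′ untranslated regions, and mostly begin with a run of pyrimidines after the cap, the 5′ terminal oligopyrimidine or TOP tract, through which mTOR and the protein LARP1 control their translation and stability. In neurons ribosome supply is tied to growth and to protein synthesis after activity, and protein synthesis in the SCN is under control of mTOR.

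RefSeq promoter windows on GRCm38.p6, from 250 bases before to 50 after an annotated start, existed for 57 of the 79 genes. A tract was searched on the transcribed strand as an unbroken run of at least 8 C or T beginning with C, starting between 5 bases before and 30 after the annotated start. It was found in 31 of the 57 genes (54.4%), against 12.7% of the 27025 genes with a window. The following 30-base stretches show it in capitals, with the bases around it, for 7 genes that fell under SVE and for Rpl28, which was lower in KO. The same stretch at the start of Rps3 and Rps4x, which also fell under SVE, has no such run. The tract began 14 bases after the RefSeq start in Rpl11, 23 in Rpl26, 24 in Rpl37a and 6 in Rpl39.
Rpl11 (chr4:136053355-136053384, minus strand): gaagtCTCCCTCTCTCTTCCTgttctccac
Rpl26 (chr11:68901584-68901613, plus strand): tagttCTCTTTCCTTTTgcggccatcggtg
Rpl37a (chr1:72711279-72711308, plus strand): tgcgtCCCTTCCTCTTCggacttgggcttg
Rpl39 (chrX:37085192-37085221, minus strand): agcgaCTTCTTCTaatcgcgttcttccggt
Rps15a (chr7:118116123-118116152, minus strand): gccatCTTCCCTCgccggtgagtgagtgtt
Rps18 (chr17:33955641-33955670, minus strand): ccgCTCTCTCTTCCacaggaggcctacacg
Rps24 (chr14:24490673-24490702, plus strand): ggtCCTTCCTTgcgcgttgatatgattggt
Rpl28 (chr7:4792960-4792989, plus strand): tgtCTCTCTTTCCgtctccggccgccatag
Rps3 (chr7:99483685-99483714, minus strand): tcgccgcgctgcgcggcgtcattgctcccg
Rps4x (chrX:102189367-102189396, minus strand): gcggagcaacccaggctccagcgcgcgcgc

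The ETS core CCGGAAG, searched on both strands like the motifs after it, was in 24 of the 57 windows (42.1%), against 9.93% of all genes, and CACGTG, the E-box letters bound by clock factors and by Myc, in 6 (10.5%), against 8.09%. TGACGTCA, the cAMP response element, was in 5 (8.77%), against 2.03%, and TATAAA in 6 (10.5%), against 15.7%. Averaged over the genotypes, the median log2 fold change between SVE and nSVE was -0.37 for the 31 genes with a tract, of which 7 passed the test described below. It was -0.35 for the 26 without one, of which 3 passed, and the difference between these sets was not tested. No window was used here for the other 5 that passed, among them Rpl3, Rpl7, Rps14 and Rps27a.

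Levels are given as normalized reads, the authors' read counts divided by one size factor per library, and between genes as normalized reads per kilobase of the shortest principal transcript. Per kilobase Rpl41, the smallest ribosomal protein, stood highest with 30515, and the stalk protein gene Rplp1 with 26651 came next; among the 5 highest were also Rpl38 with 17343 and Rpl8 with 16939.8. The 5 lowest were Rps27l with 215, Rpl23 with 428, Rpl35a with 559, Rpl5 with 686 and Rpl35 with 874. The median was 3505 per kilobase for the large and 4679 for the small subunit. The 3 paralogues that are used in muscle or testis, Rpl3l, Rpl10l and Rpl39l, were at 0 in all 14 libraries. Rps27l, a p53 target and the last gene inside the threshold, averaged 107 normalized reads and was at 0 in 1 KO SVE and 1 KO nSVE library; Rpl32l, the nearest gene outside, averaged 15.4. The annotation calls 2 of the 79, Rps4l and Rpl6l, processed pseudogenes.

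Named pseudogenes of these genes, 319 in the table, held many reads of the same kind. Their summed level was 25.2% to 29.9% of that of the 79 genes, and where copies are near-identical the counting could have split their reads, so single genes' values are uncertain. The share was 27.2% to 29.9% in KO SVE, against 25.7% to 27.6% in KO nSVE, and 25.6% to 27.9% in WT SVE, against 25.2% to 27.2% in WT nSVE. The steadiest genes within groups were Rps15a, Rps4x and Rps9, with within-group SDs of 0.09, 0.13 and 0.15 on the log2 scale, and the least steady were Rps27l, Rps12 and Rpl35 with 2.61, 0.74 and 0.68. The median SD of the 79 genes was 0.29, against 0.46 over the 18175 genes tested.

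Libraries held 17709080 to 48794679 reads, and the 79 genes took 0.962% to 1.54% of them. Vipr2, the deleted gene, had 90.9 to 244 normalized reads in KO libraries and 6247 to 10031 in WT libraries. All 11 SCN marker genes fixed as a list, such as Vip, Avp and Six6, were detected; they summed to 72721 to 82217 normalized reads in KO SVE, against 71611 to 78459 in KO nSVE, and 93066 to 107134 in WT SVE, against 81764 to 84817 in WT nSVE. Libraries also differed in ways that go with exercise or genotype. The rRNA-related gene CT010467.1 took 2.68% to 3.72% of reads in KO SVE, against 3.86% to 19.4% in KO nSVE, and 1.33% to 12.5% in WT SVE, against 4.80% to 21.8% in WT nSVE. Of the tested genes 3.99% to 16.3% were at 0 in KO SVE, against 11.2% to 20.7% in KO nSVE, and 1.22% to 4.65% in WT SVE, against 4.56% to 8.23% in WT nSVE. Fits with either share as a covariate are given below. In bulk tissue fewer cells of a type and less RNA per cell cannot be told apart.

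The question of how exercise bears on this module was addressed by setting SVE against nSVE within each genotype. Summed over the 79 genes the level was 277831, 281879 and 243582 normalized reads in the KO SVE libraries, against 316072, 321429 and 432352 in KO nSVE. In WT it was 278742, 388264, 276965 and 288181 under SVE, against 367429, 402552, 407733 and 389374 under nSVE. The KO groups did not overlap, with nSVE replicate 3 far above the others; in WT 3 SVE libraries lay below all nSVE libraries and SVE replicate 2 lay among them. Group means were 267764 ± 21040.1 in KO SVE and 356618 ± 65642.2 in KO nSVE (SD, n = 3 each), and 308038 ± 53710.2 in WT SVE and 391772 ± 17975.3 in WT nSVE (SD, n = 4 each). WT SVE replicate 2 also had the highest rRNA share of its group, 12.5%, against 1.33% to 5.22% in the others. WT nSVE replicate 3, with a share of 12.2%, had a sum of 407733. WT SVE replicate 3 and WT nSVE replicate 4, with shares of 5.22% and 4.80%, had sums of 276965 and 389374. These are single libraries picked by their share, and the part of the rRNA share in the difference was not tested with them. The fit with this share as a covariate is given below. As a share of reads outside the rRNA-related gene, the 79 genes took 0.994% to 1.12% in KO SVE, against 1.25% to 1.60% in KO nSVE. In WT they took 1.08%, 1.42%, 1.07% and 1.08% under SVE, against 1.44%, 1.53%, 1.64% and 1.56% under nSVE, with no overlap in either genotype. As a share of all reads, however, the groups overlapped in both genotypes. That share was 0.962% to 1.08% in KO SVE, against 1.03% to 1.54% in KO nSVE, and 1.02% to 1.24% in WT SVE, against 1.13% to 1.48% in WT nSVE.

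**Figure D1:**
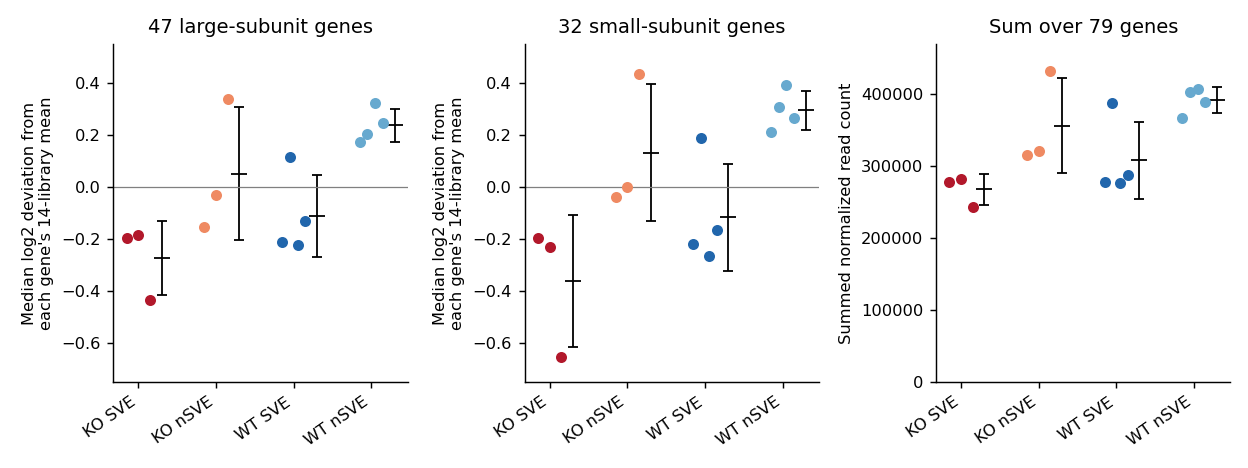
Level of the ribosomal protein genes in each library (points), with the group mean and SD (bars), for KO SVE, KO nSVE, WT SVE and WT nSVE. The left and middle panels give the median log2 deviation of the 47 large-subunit and 32 small-subunit genes from each gene's own mean over the 14 libraries; the right panel gives the summed normalized read count, 243582 to 281879 in KO SVE, against 316072 to 432352 in KO nSVE, and 276965 to 388264 in WT SVE, against 367429 to 407733 in WT nSVE.

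Each gene was tested with limma, on the log2 of normalized reads plus 1, over the 18175 genes with at least 10 normalized reads in at least 3 libraries, and a gene was called at a Benjamini-Hochberg adjusted p under 0.05 within the comparison. All 79 genes entered the test. In WT 7 of them fell under SVE and none rose, where limma called 0.259% of all genes lower and 1.02% higher (percent of genes tested). Below 0 were 74 of the 79, against 47.2% of all genes. At an unadjusted p under 0.05, 38 were lower and 0 higher, against 4.51% and 7.98% of all genes. With no overlap between the groups 23 were lower and 0 higher, against 6.06% and 8.61%. The median log2 fold change of the 79 was -0.38 (a change of -23.2%), against 0.03 over all genes tested. In KO mice limma called none of the 79 (0.0165% of all genes were called lower and 0.099% higher), edgeR called none and DESeq2 called 10, all lower, where DESeq2 called 0.781% of all genes lower and 1.38% higher. At an unadjusted p under 0.05, 31 were lower and 0 higher there, against 5.68% and 8.16% of all genes. Among the 5 with the smallest p were Rpl11, Rps15a, Rps24 and Rpl3. Below 0 in KO were 73 of the 79, against 45.7% of all genes. Lower with no overlap were 25, and higher 0, against 4.7% and 5.28%, and the median was again -0.38, against 0.04 over all genes. The 2 exercise comparisons share no library, though they share one estimate of each gene's spread. In 68 genes the fold change was below 0 in both genotypes, against 22.9% of all genes, and 9 were lower with no overlap in both, against 0.539%: Rpl3, Rpl11, Rpl26, Rpl39, Rps2, Rps3, Rps4x, Rps15a and Rps27. Averaged over the genotypes, 15 genes fell and none rose, where 0.457% of all genes were called lower and 0.996% higher. Below 0 were 77, against 43.6% of all genes, with a median of -0.35, against 0.05. At an unadjusted p under 0.05, 50 were lower and 0 higher, against 5.85% and 9.19% of all genes. The 2 above 0 were Rpl10 (0.01) and Rpl28 (0.02), neither called.

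**Figure D2:**
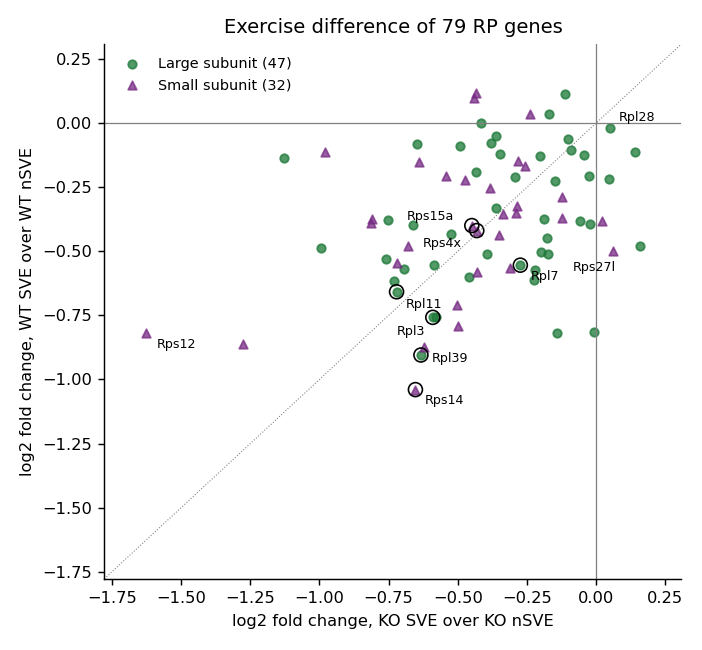
Log2 fold change of each of the 79 genes between SVE and nSVE, in KO (x axis) and in WT (y axis); circles are large-subunit and triangles small-subunit genes, rings mark the 7 genes called in WT, and the dotted line marks equal change. In 68 genes both values lie below 0, and Rps12, far to the left, has the lowest value in KO, -1.63.

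The genes of the large subunit that fell in WT were Rpl3, Rpl7, Rpl11 and Rpl39. Rpl3, a core protein that reaches towards the peptidyl transferase centre (ENSMUSG00000060036.14; chromosome 15, 80077791 to 80091868, minus strand, GRCm38), had 9392, 9693 and 7557 normalized reads in the KO SVE libraries, against 13379, 13844 and 12682 in KO nSVE. Its WT libraries had 9060.2, 12692, 9205 and 8216 under SVE, against 17421, 15885, 15083 and 17042 under nSVE. No SVE library of either genotype reached the lowest nSVE library of its own genotype, and WT SVE replicate 2 was the highest of the SVE libraries. Its log2 fold change was -0.76 ± 0.12 (SE) in WT (limma adjusted p = 0.0105) and -0.59 ± 0.14 in KO (limma adjusted p = 0.13), and averaged over both it was -0.67 (limma adjusted p = 0.00253). Rpl11, which binds 5S rRNA together with Rpl5 and can hold the p53 regulator Mdm2 when ribosome assembly fails (ENSMUSG00000059291.15; chromosome 4, 136028265 to 136053428, minus strand), had 1634, 1403 and 1547 normalized reads in the KO SVE libraries, against 1946, 2781 and 2941 in KO nSVE. For WT the values were 1383, 1588, 1486 and 1319 under SVE, against 2316, 2042, 2369.9 and 2385 under nSVE. The SVE and nSVE ranges were apart in both genotypes, with KO nSVE replicate 1 nearest to the SVE libraries. Rpl11 had log2 fold changes of -0.66 ± 0.13 in WT (limma adjusted p = 0.0238) and -0.72 ± 0.15 in KO (limma adjusted p = 0.0871). Its partner Rpl5 averaged 1059.8 ± 72.5 in WT SVE and 1618 ± 229 in WT nSVE (SD, n = 4 each), with no overlap and no call (log2 fold change -0.60, limma adjusted p = 0.185). Rpl39, a small protein that lines the exit tunnel of the nascent chain (ENSMUSG00000079641.3; chromosome X, 37082520 to 37085402, minus strand), had 714, 527 and 502 normalized reads in the KO SVE libraries, against 792, 873 and 1020.5 in KO nSVE. In WT it had 418, 549.8, 425 and 533 under SVE, against 982, 773, 917 and 923 under nSVE. Its highest WT SVE library was below its lowest WT nSVE library, and the KO groups were apart too, though less widely. The WT log2 fold change was -0.90 ± 0.17 (limma adjusted p = 0.0217), and in KO -0.63 ± 0.20 (limma adjusted p = 0.218). Rpl7 averaged 1694 ± 166 in WT SVE and 2486 ± 231 in WT nSVE (SD, n = 4 each; log2 fold change -0.55, limma adjusted p = 0.0439), with no overlap, whereas in KO it had 1758, 1808 and 1880.4 under SVE, against 2109, 1843 and 2719 under nSVE, ranges that overlap (-0.27, limma adjusted p = 0.406).

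Of the small subunit Rps15a, Rps4x and Rps14 fell in WT. Rps15a, the steadiest of the 79 genes (ENSMUSG00000008683.16; chromosome 7, 118104372 to 118116188, minus strand), had 4895, 4372 and 4576 normalized reads in the KO SVE libraries, against 5909, 6214 and 6792 in KO nSVE. Its WT libraries had 4572, 4034, 4256 and 3878 under SVE, against 5194, 5769, 5611 and 5487 under nSVE. Its ranges were apart in both genotypes, and the fall was modest: -0.40 ± 0.09 in WT (limma adjusted p = 0.0324), and in KO the log2 fold change was -0.45 ± 0.10 (limma adjusted p = 0.104). Rps4x, the X-linked S4 gene (ENSMUSG00000031320.9; chromosome X, 102184941 to 102189394, minus strand), had 6585, 5043 and 5252 normalized reads in the KO SVE libraries, against 7530.3, 7302 and 7782 in KO nSVE. For WT the values were 5271, 4684, 5119 and 5438 under SVE, against 7012, 7052, 7314 and 6082 under nSVE. Again no library crossed over, and the log2 fold change was -0.42 ± 0.10 in WT (limma adjusted p = 0.0491) and -0.43 ± 0.11 in KO (limma adjusted p = 0.164). Rps14, which lies in the region lost in the human 5q- syndrome, an anaemia (ENSMUSG00000024608.11; chromosome 18, 60747098 to 60778546, plus strand), had 2163, 2040.5 and 1286 normalized reads in the KO SVE libraries, against 2496, 2401 and 3684 in KO nSVE. In WT it had 1784, 3445, 1511 and 1715 under SVE, against 3402, 4299, 4271 and 4561 under nSVE. WT SVE replicate 2 lay just above the lowest WT nSVE library, while the other SVE libraries were well below; the KO groups were apart. It had the lowest value of the 79 in WT, -1.04 ± 0.23 (limma adjusted p = 0.0401), beside -0.65 ± 0.27 in KO (limma adjusted p = 0.316).

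**Figure D3:**
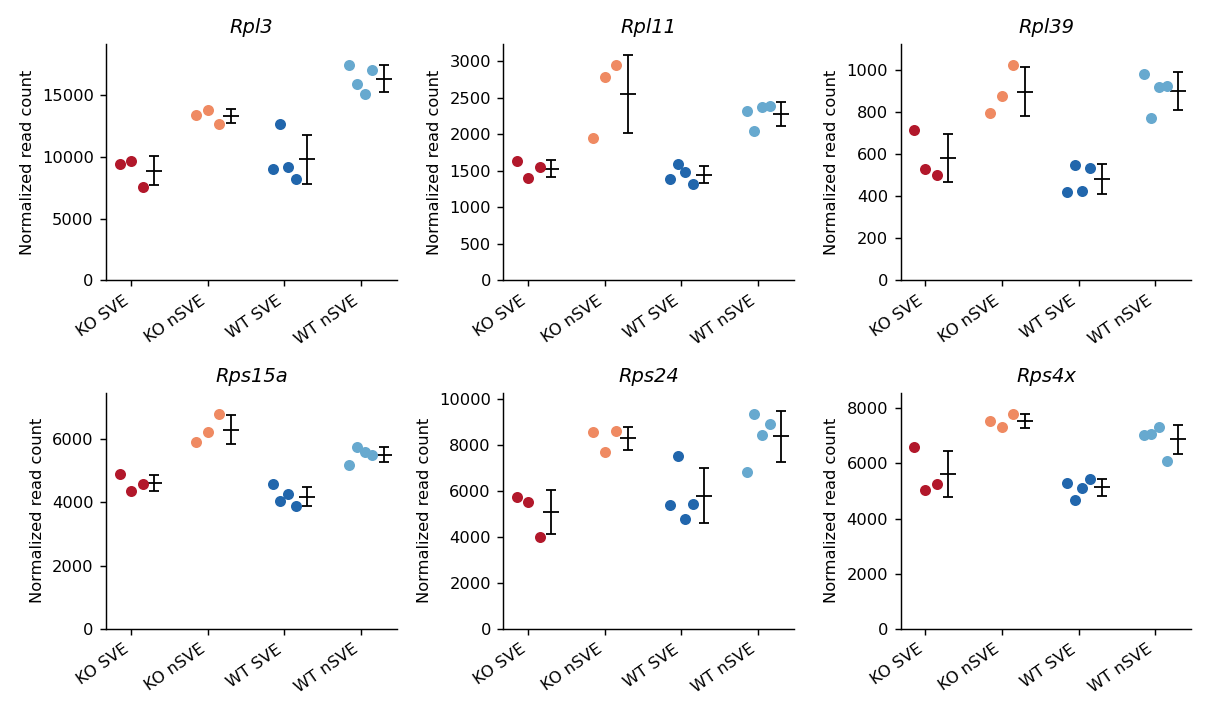
Normalized read counts of the 6 genes whose fall under SVE, averaged over the genotypes, passed in all 14 single-library omissions; points are libraries and bars the group mean and SD (n = 3 in KO groups and 4 in WT groups). Within each genotype the SVE libraries lie below the nSVE libraries, except for WT SVE replicate 2 in Rps24.

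Another 8 genes passed only in the average, among them Rpl19, Rpl26 and Rpl37a of the large and Rps3, Rps18, Rps24 and Rps27a of the small subunit. Rps27a, which is made as a fusion with ubiquitin, had the largest averaged change of the called genes, -1.07 ± 0.21 (limma adjusted p = 0.0244). It had 693, 402 and 449 normalized reads in the KO SVE libraries, against 1680.5, 982 and 1079 in KO nSVE. Its WT libraries had 466, 648, 299.9 and 359 under SVE, against 515, 894, 927 and 837 under nSVE. The KO groups were apart and 1 WT nSVE library lay within the WT SVE range. Rps24, mutated in some cases of human Diamond-Blackfan anaemia, had 5757, 5518 and 4005 normalized reads in the KO SVE libraries, against 8564, 7720.5 and 8596 in KO nSVE. For WT the values were 5393, 7541, 4793 and 5458 under SVE, against 6829, 9346, 8449 and 8936 under nSVE. Its averaged log2 fold change was -0.63 ± 0.11 (limma adjusted p = 0.013). Only WT SVE replicate 2 crossed into the nSVE range. Rps3, at the entry of the mRNA channel, had 2825, 2952 and 2974 normalized reads in the KO SVE libraries, against 3174, 3555 and 6279 in KO nSVE. In WT it had 3152, 3245, 2494 and 2875 under SVE, against 4499, 4351, 4834 and 5526 under nSVE. The groups were apart in both genotypes, and KO nSVE replicate 3 stood far above the other KO libraries. The averaged change was -0.61 ± 0.13 (limma adjusted p = 0.0311). Rpl26, near the end of the exit tunnel, had 5133, 6477 and 5031 in KO SVE, against 6574, 7517 and 14336 in KO nSVE, and averaged 6774 ± 619 in WT SVE and 10095 ± 1438 in WT nSVE (SD, n = 4 each; -0.63 averaged, limma adjusted p = 0.0425). KO nSVE replicate 3 stood apart here too. The averaged changes of Rpl37a, Rps18 and Rpl19 were -0.74, -0.58 and -0.57 (limma adjusted p = 0.048, 0.0454 and 0.0324).

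Other members with a known role did not pass in any exercise comparison. Rps6, the substrate of S6 kinase, had 4596, 4700.1, 5058 and 4228 in WT SVE, against 6105, 5746, 6018 and 6304 in WT nSVE, without overlap (-0.38, limma adjusted p = 0.251). In KO it had 5241, 3938 and 7507 in KO SVE, against 4947, 5228 and 5735 in KO nSVE (0.02, limma adjusted p = 0.975), and the test of the difference between genotypes did not pass (limma adjusted p = 0.531). Of the stalk, Rplp0, its base, averaged 10679.8 ± 1310.4 in WT SVE and 13366 ± 243 in WT nSVE (SD, n = 4 each; -0.33, limma adjusted p = 0.283). Rplp1 had 11141, 29655, 5882 and 8415 in WT SVE, against 12919, 26431, 20054 and 19542 in WT nSVE, with 1 SVE library above all others (-0.76, limma adjusted p = 0.4). Rplp2 had -0.05 in WT and -0.36 in KO (limma adjusted p = 0.985 and 0.432). Rpl38, needed in mouse embryos for translation of Hox mRNAs, had log2 fold changes of -0.62 in WT and -0.73 in KO (limma adjusted p = 0.355 and 0.329). Rpsa, also known as the laminin receptor, had -0.35 and -0.29 (limma adjusted p = 0.459 and 0.539), and Rps19, a Diamond-Blackfan gene in people, -0.22 and -0.47 (limma adjusted p = 0.66 and 0.286). Rps27, one of the 9 apart in both genotypes, had -0.79 and -0.50 (limma adjusted p = 0.0879 and 0.377). Rps28 and Rpl41 had averaged changes of -0.21 and -0.48 (limma adjusted p = 0.715 and 0.285). Rps12 had the lowest value in KO, -1.63 ± 0.49 (limma adjusted p = 0.215), with 1430.5, 1695 and 345 under SVE, against 2785, 2015 and 4408 under nSVE; its groups were apart but wide. Rpl10, which joins late in the cytoplasm and readies the large subunit for joining the small one, had -0.11 in WT and 0.14 in KO (limma adjusted p = 0.881 and 0.711).

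The subunits were compared by their medians. In WT the median log2 fold change was -0.38 for the 47 large-subunit and -0.38 for the 32 small-subunit genes, and of these 4 and 3 were called. In KO the medians were -0.29 and -0.44, with 10 large-subunit and 15 small-subunit genes lower without overlap. Per library, the median deviation of the large minus that of the small subunit was 0.00, 0.05 and 0.22 in KO SVE, against -0.11, -0.03 and -0.10 in KO nSVE, and 0.01, -0.07, 0.04 and 0.04 in WT SVE, against -0.04, -0.10, -0.07 and -0.02 in WT nSVE. The KO groups were apart, with SVE replicate 3, the library in which 16.3% of tested genes were at 0, the farthest out; WT SVE replicate 2 lay within the WT nSVE range. No test was made of these differences.

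Single libraries and their RNA makeup bear on these counts. In WT the count was 0 without WT SVE replicate 1, 1 without WT SVE replicate 3 or 4 or WT nSVE replicate 1, 3 or 4, and 3 without WT nSVE replicate 2. It was 13 without WT SVE replicate 2 or KO nSVE replicate 3, 12 without KO SVE replicate 2 and 11 without KO SVE replicate 3. The share of all genes called lower moved too, from 0.0165% without WT SVE replicate 1 to 0.572% without KO nSVE replicate 3. Without WT SVE replicates 1 to 4 the count in the average was 7, 23, 8 and 6. It was 8, 6, 6 and 9 without WT nSVE replicates 1 to 4, and 9 without KO SVE replicate 2. There the share of all genes called lower ran from 0.105% without WT SVE replicate 4 to 0.759% without KO nSVE replicate 1. Without WT SVE replicate 2 that share was 0.594%. Rpl3, Rpl11, Rpl39, Rps4x, Rps15a and Rps24 kept their averaged call in all 14 omissions. In KO 2 genes were called lower without KO nSVE replicate 1, where 0.198% of all genes were. The KO median was -0.21 without KO nSVE replicate 3. With the share of genes at 0 as a covariate the count was 3 in WT and 5 in the average, where 0.0825% and 0.105% of all genes were called lower. With the log2 share of the rRNA-related gene as a covariate limma called 0 of the 79 in WT and in the average (and 0 of all genes in the average), with medians of -0.35 in WT, -0.40 in KO and -0.39 in the average. Rpl3 then had a log2 fold change of -0.59 in WT (limma adjusted p = 0.228) and Rpl11 one of -0.67 in the average (limma adjusted p = 0.167). Oligodendrocyte markers, 10 genes, summed to 52657 to 77853 in WT SVE, against 77342 to 104419 in WT nSVE, and to 63206 to 98174 in KO SVE, against 68675 to 81271 in KO nSVE. Choroid plexus markers, 5 genes of which 3 were tested, summed to 380.4 to 2550 in WT SVE, against 44.5 to 141 in WT nSVE, and to 11.4 to 638 in KO SVE, against 24.7 to 534 in KO nSVE; the 3 tested were above 0 in WT, with a median log2 fold change of 2.59. The part of cell makeup in the result was not tested.

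The pattern used to choose the genes misses 7 ribosomal protein genes and close relatives, among them Rack1, Fau, Rps3a1, Rpl36al, Rpl22l1 and Rpl7l1. All 7 had a log2 fold change below 0 in WT and in the average, and Rps3a1, of the small subunit, passed in the average (-0.55, limma adjusted p = 0.0282). Rps3a1 had 2916, 2331 and 2264 normalized reads in KO SVE, against 3265, 3343 and 3944 in KO nSVE. It had 2398, 2906, 2211 and 2004 in WT SVE, against 3690, 2748, 4159 and 3988 in WT nSVE. Only WT overlapped, through SVE replicate 2 and nSVE replicate 2. Over all genes tested 43.6% were below 0 in the average, with a median of 0.05, and limma called 0.457% lower and 0.996% higher. The 16 translation factors and related proteins encoded by TOP mRNAs had a median of -0.10 in the average, with 13 below 0 and none called. The 9 snoRNA host genes with TOP starts had -0.05, with 5 below 0 and none called. In WT 3 of these were above 0 and 6 below (median -0.29), and in KO 7 were above and 2 below (median 0.81), none called in either. Of 30 factors of ribosome biogenesis 20 were below 0 in the average (median -0.15) and none was called. The 83 mitochondrial ribosomal protein genes tested had a median of -0.11 in the average, with 51 below 0 and 1 call, Mrpl41, lower. Of 148 pseudogenes of the cytosolic genes 113 were below 0 in the average (median -0.29), and 3 were called lower, Rpl10a-ps1, Rpl17-ps10 and Rpl19-ps11. Pseudogenes may share reads with their parents, which was not measured, so they are not taken as an independent measurement. Of 19 genes of mTOR, S6 kinase and Myc control, 15 were above 0 in the average (median 0.10). In WT 9 were above 0 and 10 below (median -0.05), and in KO 15 were above and 4 below (median 0.25). In the average 1 was called, Rps6kb2, the second S6 kinase gene, which rose. Rps6kb2 had 651, 1183 and 779 normalized reads in KO SVE, against 486, 340.1 and 292 in KO nSVE. It had 1253, 999, 1009 and 1709.7 in WT SVE, against 375, 472, 662 and 320.2 in WT nSVE. Its groups were apart in both genotypes (averaged log2 fold change 1.33, limma adjusted p = 0.00467; in WT 1.46, limma adjusted p = 0.0192).

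The question of what loss of VPAC2 does to the module was addressed by setting KO against WT under nSVE and under SVE. No ribosomal protein gene passed limma's test in either. Under nSVE 57 of 79 were below 0, against 58.9% of all genes, with a median of -0.09, against -0.10 over all genes. Limma called 0 of the 79 there (0.484% of all genes lower and 0.127% higher) and edgeR none. DESeq2 called 1 lower and 1 higher, where it called 1.93% and 0.919% of all genes. At an unadjusted p under 0.05, 13 were lower and 3 higher, against 9.45% and 4.89% of all genes. With no overlap 10 were lower and 3 higher, against 6.25% and 4.91%. Under SVE 54 were below 0, against 57.9% of all genes, with a median of -0.24, against -0.10. There limma called 0 (0.127% of all genes lower and 0.0495% higher) and edgeR none. DESeq2 called 1 lower and 1 higher, where it called 1.45% and 1.15% of all genes. At an unadjusted p under 0.05, 12 were lower and 5 higher, against 9.92% and 5.1% of all genes. With no overlap 5 were lower and 1 higher, against 8.18% and 5.96%. The SVE median was -0.10 without KO SVE replicate 3 or WT SVE replicate 2, and 0.02 after correction for transcript GC content and length. Without KO SVE replicate 2, 4 genes were called lower and 4 higher, where 4.25% and 1.8% of all genes were, and without KO nSVE replicate 3 1 was called lower, where 0.275% were. The nSVE median was -0.26 without KO nSVE replicate 3, and 1 gene was then called lower, where 0.479% of all genes were. Without KO nSVE replicate 2, 1 was called higher, where 0.22% of all genes were. Without WT SVE replicate 2, 2 were called lower, where 0.451% of all genes were. The SVE groups also differ in how long the exercise lasted, and by the series text perhaps in circadian time, which cannot be told apart from genotype. Of the biogenesis factors Fbl, the rRNA 2′-O-methyltransferase fibrillarin, fell in KO under nSVE, with 448, 527 and 503 normalized reads in KO nSVE, against 998, 816, 1262 and 861 in WT nSVE, without overlap (-0.98, limma adjusted p = 0.0243).

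Averaged over both conditions 2 genes were called, both lower in KO, where limma called 0.82% of all genes lower and 0.363% higher: Rps29 and Rpl28. Below 0 were 57 of the 79, against 62.5% of all genes, and at an unadjusted p under 0.05, 20 were lower and 6 higher, against 12% and 5.82%. Rps29, a zinc finger protein of the small subunit (ENSMUSG00000034892.8; chromosome 12, 69157722 to 69159186, minus strand), had 2633, 4599 and 2741 normalized reads in KO SVE, against 5250.4, 10846, 3813 and 5026 in WT SVE. Under nSVE it had 4177, 3689 and 5287 in KO nSVE, against 7464, 8802, 9490.3 and 8724 in WT nSVE. Under nSVE the genotypes were apart, and under SVE KO replicate 2 lay within the WT range. The averaged log2 fold change was -0.91 ± 0.19 (limma adjusted p = 0.0333), with -0.99 under nSVE and -0.84 under SVE (limma adjusted p = 0.124 and 0.197). Rpl28, a large-subunit protein without a bacterial counterpart (ENSMUSG00000030432.12; chromosome 7, 4792874 to 4795066, plus strand), had 1742, 2718 and 1693 in KO SVE, against 2904, 4950.3, 2483 and 2567 in WT SVE. It had 1881, 2199 and 1749 in KO nSVE, against 2795, 3549, 3208 and 3034 in WT nSVE. It too was apart under nSVE, and under SVE KO replicate 2 lay within the WT range. Its averaged log2 fold change was -0.66 ± 0.15 (limma adjusted p = 0.0467), beside 0.02 for exercise (limma adjusted p = 0.975). Rpl37a (-0.71, limma adjusted p = 0.0638), Rps28 (-0.85, limma adjusted p = 0.0813) and Rpl12 (-0.36, limma adjusted p = 0.0997) were the next by p. The count was 0 without KO SVE replicate 1 or 3, WT SVE replicate 1 or 4 or any single WT nSVE library. It was 1, lower, without KO nSVE replicate 1 or 2 or WT SVE replicate 2. There 1.39%, 1.11% and 0.429% of all genes were called lower. Without KO nSVE replicate 3 it was 7, all lower, where 1.53% of all genes were called lower. Without KO SVE replicate 2, 6 genes were called lower and 4 higher, where 3.84% and 1.7% of all genes were. The summed level of 10 astrocyte markers was higher in KO. Under SVE it was 123799 to 139532 in KO, against 108821 to 121380 in WT. Under nSVE it was 124669 to 145265 in KO, against 105619 to 121688 in WT. By gene, 7 were above 0 and 3 below under SVE, and 6 above and 4 below under nSVE. Choroid plexus markers summed to 11.4 to 638 in KO SVE, against 380.4 to 2550 in WT SVE, and to 24.7 to 534 in KO nSVE, against 44.5 to 141 in WT nSVE. The 5 ependyma and tanycyte markers tested were all below 0 in the genotype average (median log2 fold change -1.32), and 0 were called. Markers of this list summed to 489 to 1596 in KO SVE, against 703 to 1475 in WT SVE. Under nSVE they summed to 869 to 1419 in KO, against 944 to 1813 in WT. The part of these markers in the result was not tested. With the share of genes at 0 as a covariate the count of ribosomal protein genes called was 0, where 0.0495% of all genes were called lower.

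Other genes were named for having the smallest p under 1 condition. Rps13, of the small subunit, was higher in KO under nSVE, with 5918, 4037 and 4670.4 in KO nSVE, against 2540.0, 3248, 3133 and 3673 in WT nSVE, without overlap, but did not pass (0.62, limma adjusted p = 0.0969). Under SVE it had 4323, 3636 and 2831 in KO, against 3451, 3327, 3163 and 3433 in WT (0.08, limma adjusted p = 0.849). Rpl12, at the base of the stalk, had 1709.5, 1811 and 1878 in KO nSVE, against 2458, 2517, 3109 and 2391 in WT nSVE, apart and lower (-0.53, limma adjusted p = 0.124), and Rpl27 had -0.59 (limma adjusted p = 0.209). Under SVE Rpl37a had 1326, 1635 and 948 in KO, against 2400.1, 3359, 1906 and 2470.1 in WT, apart and lower (-0.96, limma adjusted p = 0.138), Rpl4 had 0.37 (limma adjusted p = 0.203) and the pseudogene Rps4l -0.60 (limma adjusted p = 0.224). Across the 79 genes the averaged genotype difference had a Spearman's rho of 0.41 with log2 transcript length, a description across genes of the same libraries, which are not independent. It was 0.35 under nSVE and 0.37 under SVE, and for the averaged exercise difference rho was 0.20.

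**Figure D4:**
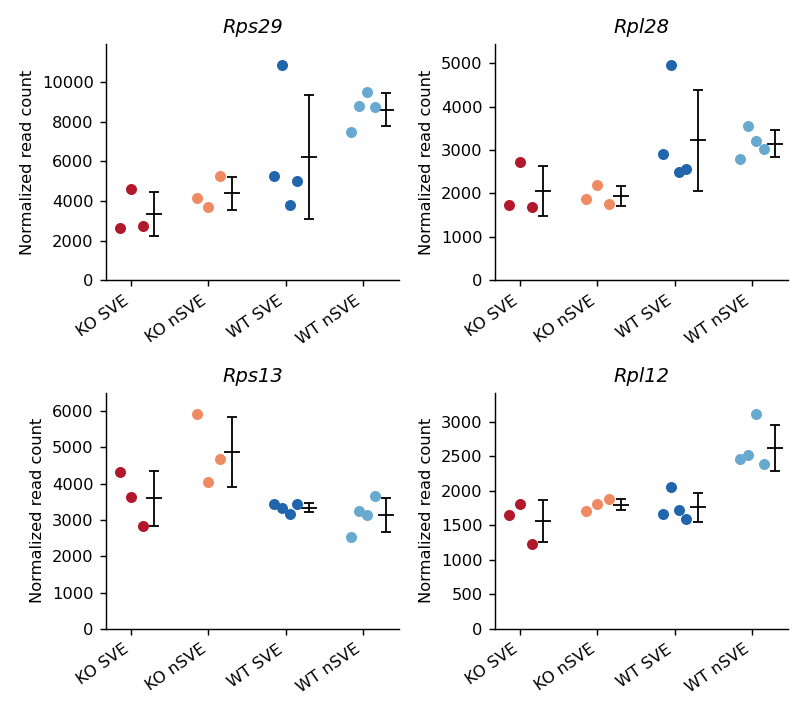
Normalized read counts of Rps29, Rpl28, Rps13 and Rpl12 in each library (points), with group mean and SD (bars; n = 3 in KO groups and 4 in WT groups). Rps29 and Rpl28, called lower in KO in the average, lie lower in KO than in WT under nSVE without overlap, and WT SVE replicate 2 is the highest WT SVE library of both.

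**Figure D5:**
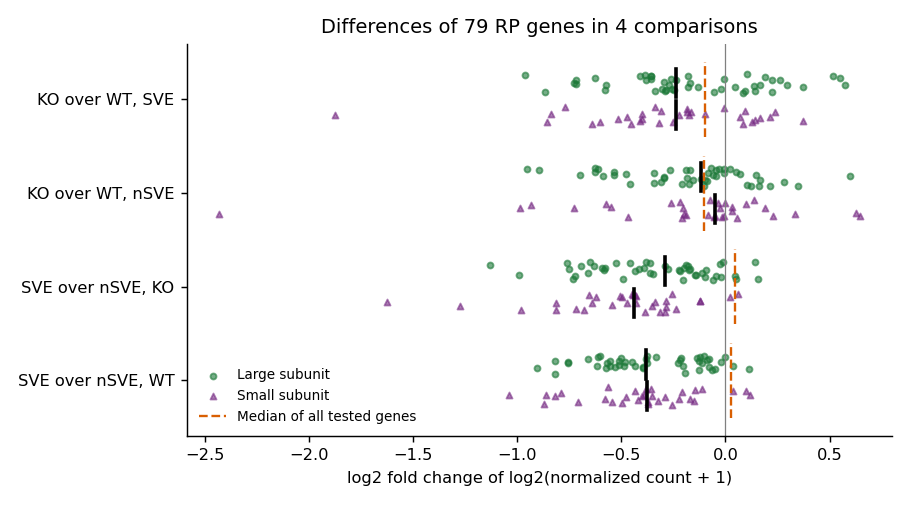
Log2 fold changes of the 47 large-subunit and 32 small-subunit genes (points, spread vertically at random) in the 4 comparisons between pairs of groups; black bars are the medians of each subunit and dashed lines the medians of all 18175 genes tested. The 2 exercise comparisons lie left of the dashed lines with medians of -0.38 over the 79 genes, and the 2 genotype comparisons lie nearer to them with -0.24 under SVE and -0.09 under nSVE.

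Whether exercise moved the module differently in the 2 genotypes was tested as the interaction, the exercise difference in KO minus that in WT. Limma called none of the 79 (0.011% of all genes in each direction; the smallest adjusted p was 0.443), and neither DESeq2 nor edgeR called any. At an unadjusted p under 0.05, 1 was higher and 2 lower, against 4.87% and 5.45% of all genes, and 41 were below 0, against 49.1%. The median of the interaction was -0.03, against 0.01 over all genes. The genes with the smallest p were Rps13 (-0.54), Rpl22 (0.81), Rpl7a (-0.57), Rps26 (-0.87) and Rpl34 (0.68), with limma adjusted p between 0.443 and 0.513. Rpl22, whose protein restrains its paralogue Rpl22l1, had 1055, 600.0 and 593 in KO SVE, against 727, 964 and 546 in KO nSVE. It had 458, 616, 415 and 555 in WT SVE, against 939.9, 989, 836 and 807 in WT nSVE. WT was apart and KO overlapped. Rpl22l1 had 1287, 408 and 884 in KO SVE, against 885, 878 and 350.3 in KO nSVE. In WT it had 247, 235, 341 and 308 under SVE, against 685, 675, 692 and 625 under nSVE, with WT again apart (-1.26 in WT, limma adjusted p = 0.0842; 0.26 in KO, limma adjusted p = 0.787). These p-values do not show that the genotypes responded alike, and the length of exercise, 6 to 9 days in KO and 35 to 40 days in WT mice, cannot be told apart from genotype here.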

How the data were processed

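Total RNA of laser-cut SCN was sequenced in 14 libraries (3 per KO group, 4 per WT group) at 17709080 to 48794679 reads each. Per the series text the authors trimmed paired reads with Trimmomatic, aligned them with HISAT2 to GRCm38, counted with StringTie and GENCODE, and scaled with DESeq2; the submitters' processing notes name GRCm39, but 54349 of 55401 gene identifiers matched GENCODE M21 on GRCm38, all with the same coordinates. The deposited signal is a read count divided by a size factor per library, and all values gave whole reads within 0.001 when this was undone.

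Values were analysed as log2(value + 1) with limma 3.58.1 (R 4.3.3), 1 fit of the 4 groups, in 7 comparisons: exercise and genotype within each level of the other, both averages, and the interaction. The filter kept 18175 genes with 10 or more normalized reads in 3 libraries, and fold changes are on the log2(value + 1) scale. The test was checked on simulated data. Alternatives were edgeR 4.0.16 and DESeq2 1.42.0 on the recovered reads, other scalings, filters and pseudocounts, covariates, a replicate block and the omission of each library. Genes were named by a rule: called genes (or, with fewer than 5, the 5 smallest p) in each comparison, the 5 highest and lowest levels per length, the 3 most and least variable, the genes at the threshold, and genes with a known role. Genes called in the exercise average are named beyond the rule's 10. Some genes that the rule names are not reported here. The members and gene lists were chosen with earlier results of these data known.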

Additional observations from a re-analysis of the deposited data

Results flagged for a closer look

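In the WT SVE group, replicate 2 lay far above the other 3 libraries in 5 of the 94 sets of 4 values screened; chance alone marks about 1 in 20 such sets, and the 5 are from 1 library and not independent. The summed level of the 79 genes was 388264 normalized reads there, against 276965 to 288181 in the other WT SVE libraries. Rpl41 had 26223, against 9182 to 11128, and Rplp2, a stalk protein gene, had 3142, against 1572 to 1664. Rps14 had 3445, against 1511 to 1784, and Rpl28 had 4950.3, against 2483 to 2904.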

How the results depend on the processing

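Of the 42 fold changes recomputed for called or smallest-p genes, none changed sign in any of these settings. Genes named only for a known role or their level were not checked for this. Some medians and subunit differences did change sign, as the values below show. Of the counts and medians, 613 recomputed values stayed within the set limits and 87 moved. Of the recomputed values of those 42 fold changes, 965 stayed on the same side of the threshold, 203 lost and 30 gained a call. The cause of each move was not tested. The count of genes called for exercise in WT (7) was 18 with DESeq2 (1.14% of all genes called lower, against 0.259% with limma), 4 with edgeR and 3 with edgeR and TMM, 4 with TMM scaling, 4 with no filter, 36 with array weights (3.35% of all genes lower), 25 with only the groups compared (2.15%), 20 without KO SVE replicate 3 and KO nSVE replicate 3 (the libraries with most genes at 0; 1.17%), 3 with the share of genes at 0 as a covariate and 0 with the rRNA share. For the exercise average (15) it was 26 with DESeq2 (1.85% of all genes lower, against 0.457% with limma). It was 9 with edgeR and TMM (0.286%), 9 with array weights (0.231%) and 7 with no filter (0.148%). With the share of genes at 0 it was 5 (0.105%), and with the rRNA share 0 (0%). For exercise in KO (0) it was 10 with DESeq2 (0.781%). For the genotype average (2, both lower) DESeq2 called 6 lower and 1 higher, where it called 2.8% and 1.78% of all genes. With GC and length correction 2 were lower and 2 higher, where 1.63% and 0.71% of all genes were. The count was 1, lower, with edgeR (0.506% of all genes lower), with edgeR and TMM (0.468%) and with the rRNA share (0.655%). It was 0 with no filter (0.397%) and with the share of genes at 0 (0.0495%). Without those 2 KO libraries it was 4, all lower (1.01%). Under nSVE (0) DESeq2 called 1 lower and 1 higher (1.93% and 0.919% of all genes). There 1 was called lower with only the groups compared (0.264%) and 5 were lower without the 2 KO libraries (1.03%). Under SVE (0) DESeq2 called 1 lower and 1 higher (1.45% and 1.15%). With replicate number as a block the count was 1 for exercise in WT, where 0.138% of all genes were called lower. It was 7 for the exercise average (0.198%) and 1 for the genotype average (0.303%). Libraries that share a number correlated weakly, between -0.05 and 0.12 over 19 pairs, and the main fit used no block. For 9 of 14 libraries, though, the closest match was a library of the same number. How many such matches chance would give was not tested. These values therefore do not settle whether the numbers pair libraries, and with a block fewer genes were called in these 3 comparisons.

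The median log2 fold change was 0.0241 for KO against WT under SVE with GC and length correction, and without the 2 KO libraries it was -0.17 for exercise in KO and 0.16 for the interaction. The large minus the small subunit median was 0.0043 with array weights and 0.0321 without the 2 KO libraries for genotype under nSVE, 0.10 without them for the genotype average and 0.0677 with GC and length correction for exercise in WT. With each library left out, the counts ran from 0 to 2 (genotype, nSVE), 0 to 8 (genotype, SVE), 0 to 13 (exercise, WT), 0 to 2 (exercise, KO), 0 to 10 (genotype average) and 6 to 23 (exercise average). The share of all genes called moved too, as given in the results above. The medians ran from -0.26 to -0.04, -0.29 to -0.10, -0.43 to -0.34, -0.46 to -0.21, -0.26 to -0.11 and -0.40 to -0.30 in the same order, and from -0.14 to 0.13 for the interaction. The subunit difference ran from -0.0936 to 0.0321, -0.0203 to 0.0867, -0.0753 to 0.0770, 0.0789 to 0.21, -0.0292 to 0.0769 and 0.0065 to 0.10, and from 0.0247 to 0.17 for the interaction.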
